A study of Rattus norvegicus with 6 samples.

Results

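Transcripts of glycolysis, of pyruvate entry into mitochondria and of the citrate cycle were followed in cultured heart muscle cells given the compound 3Cl-HBA or its solvent. The genes were chosen by name, from a list of 42 that covers glucose transporters, hexokinases, the phosphofructokinase step, the enzymes down to pyruvate kinase, glycogen phosphorylase and synthase, the pyruvate dehydrogenase complex with its kinases, and the citrate cycle. A row with the listed name was found for 40 of the 42 genes among 22250 gene rows, and all 40 were among the 13903 genes with enough reads to be tested. The names Gapdh and Ogdh had no row. Rows under other names that carry their gene numbers are described separately and are not counted among the 40.

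Glycolysis splits glucose into pyruvate in the cytosol, and the pyruvate dehydrogenase complex turns pyruvate into acetyl-CoA inside mitochondria, where the citrate cycle oxidises it. Pyruvate dehydrogenase kinases switch that complex off by phosphorylation and so set how much pyruvate is burned rather than turned to lactate. The heart muscle of a newborn leans on glucose and lactate and moves toward fatty acid oxidation after birth, with a change from the widely expressed transporter and enzyme forms toward the forms typical of adult muscle.

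The cells were neonatal rat cardiomyocytes, freed with 0.08% collagenase type II from hearts of wild-type Sprague-Dawley rats at 1 day of age and cultured in medium with 10% foetal bovine serum. One group received DMSO, the solvent, and the other 3Cl-HBA at 40 µM, both for 48 h, and each group had 3 libraries of total RNA depleted of ribosomal RNA. The time is the only one sampled and the dose the only one used. Nothing in the labels says that libraries 1 to 3 of a group came from separate cultures or animals, so the p-values speak only for the spread between these libraries, which may be technical.

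The libraries held 13240800 to 17202191 reads assigned to genes, and the 40 genes took 168226 to 210249 of them. Levels are given as FPKM, the reads of a gene per kilobase of its length, scaled to the library's assigned reads, so that genes of different length can be set side by side. The 10 cardiomyocyte markers examined, among them Myh6, Tnnt2 and Ryr2, summed to 9174.5 to 9732.4 FPKM in DMSO and 9305 to 9512.7 FPKM after 3Cl-HBA. Markers of other cells were also present. The 7 measured fibroblast markers summed to 3123.5 to 3282 FPKM in DMSO and 3158.9 to 3203.9 FPKM after 3Cl-HBA, and the 6 macrophage and leukocyte markers to 227.2 to 249.7 and 243.8 to 254.89 FPKM. The 7 smooth muscle and pericyte markers and the 5 endothelial markers also overlapped between the groups in their sums. The sum of the 4 genes listed as skeletal muscle forms overlapped by little, with 60.2 to 65.6 FPKM in DMSO and 65.5 to 67.0 FPKM after 3Cl-HBA. Most of that sum was Ckm, at 50.0 to 57.7 FPKM over the 6 libraries. Heart muscle cells also express Ckm, so the sum does not show that skeletal muscle cells were present. The 4 erythroid markers summed to 56.4 to 59.3 FPKM in DMSO and 58.3 to 76.8 FPKM after 3Cl-HBA, and the 5 Schwann cell and neuron markers to 20.1 to 23.3 and 21.8 to 24.5 FPKM. Myh4, Tnni2, Sox10, Th and Alas2 were below 1 FPKM. No marker passed an adjusted p of 0.05 in edgeR's quasi-likelihood test, and 4 of 45 tested, or 8.89%, had an unadjusted p under 0.05. Lower at that level were 6.67% of the markers, against 2.59% of all genes tested, and higher were 2.22%, against 2.52%. The 4 were Ryr2, Myh7 and Myl2 of the cardiomyocyte list, with log2 fold changes of -0.17, -0.097 and -0.14, and the erythroid Hba-a1, with 0.49. Ryr2 and Myh7, lower, and Hba-a1, higher, had groups that did not overlap. The same held, in the lower direction, for Tcf21 of the fibroblast list and Rgs5 of the smooth muscle and pericyte list. Tcf21 had 31.4 to 32.3 FPKM in DMSO and 28.2 to 30.8 FPKM after 3Cl-HBA, and Rgs5 40.2 to 45.0 and 36.4 to 39.9 FPKM. Of all genes tested, 5.3% were lower and 5.06% higher in this way. The 6 macrophage and leukocyte markers all leaned upward after 3Cl-HBA (median log2 fold change 0.11) with groups that overlapped, as did the 3 tested Schwann cell and neuron markers (median 0.18). Of the 10 cardiomyocyte markers 5 were above 0 and 5 below. The part of these cells in the results was not tested.

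The question was whether 3Cl-HBA moved the transcripts of glucose use. None of the 40 genes passed an adjusted p of 0.05 by edgeR, as none of the genes tested did (0%), and the smallest adjusted p among them was 0.959. DESeq2 and limma-voom also gave 0 of 40. At an unadjusted p under 0.05, 0 of the 40 were higher after 3Cl-HBA, against 2.52% of all genes tested. Lower at that level were 2 of 40, or 5%, against 2.59% of all genes. They were Slc2a4, the insulin-responsive glucose transporter of muscle and fat, and Hk2, the hexokinase form typical of adult muscle, and DESeq2 and limma-voom gave the same 2 genes. The count turned on single libraries: it was 1 without DMSO replicate 1, 5 without DMSO replicate 3 and 4 without 3Cl-HBA replicate 3. Of these genes, Slc2a4 kept an unadjusted p under 0.05 in 11 of 12 alternative analyses, and lost it without DMSO replicate 2. Hk2 kept it in 10 of 12, and lost it without DMSO replicate 1 and without 3Cl-HBA replicate 2.

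Groups that do not overlap, with all 3 libraries of one treatment above all 3 of the other in FPKM, were seen for 5 of the 40 genes, all lower after 3Cl-HBA. These were Slc2a4, Hk2, Pgam2, Pdk1 and Cs, which make 12.5% of the genes against 5.3% of all genes tested in that direction. In the other direction it was 0 of 40 against 5.06% of all genes.

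The differences were small for nearly every gene. The median log2 fold change, 3Cl-HBA minus DMSO, was 0.0066 over the 40 genes and -0.00051 over all genes tested, and 24 of 40, or 60%, were above 0 against 49.8% of all genes. The median of the 40 was within the spread between replicates, an SD of 0.028, and its sign turned without DMSO replicate 1 (-0.0059), DMSO replicate 2 (-0.0035) or 3Cl-HBA replicate 1 (-0.0071), while it was 0.021 without DMSO replicate 3. The median size of a log2 fold change, sign ignored, was 0.029 against 0.069 over all genes tested, and 0.053 over tested genes of at least 5 FPKM. The 95% interval of the difference lay within a 1.5-fold change for 40 of 40 genes, against 80.9% of all genes, and within a 1.2-fold change for 34 of 40, or 85%, against 48.3%. These 40 genes are abundant, with a median of 95.3 FPKM against 10.3 FPKM over all genes tested, and their median SE of 0.051 on the log2 scale was smaller than the 0.095 over all genes. In bulk RNA, fewer cells of a type and less RNA per cell cannot be told apart, which holds for each level given here.

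**Figure D1:**
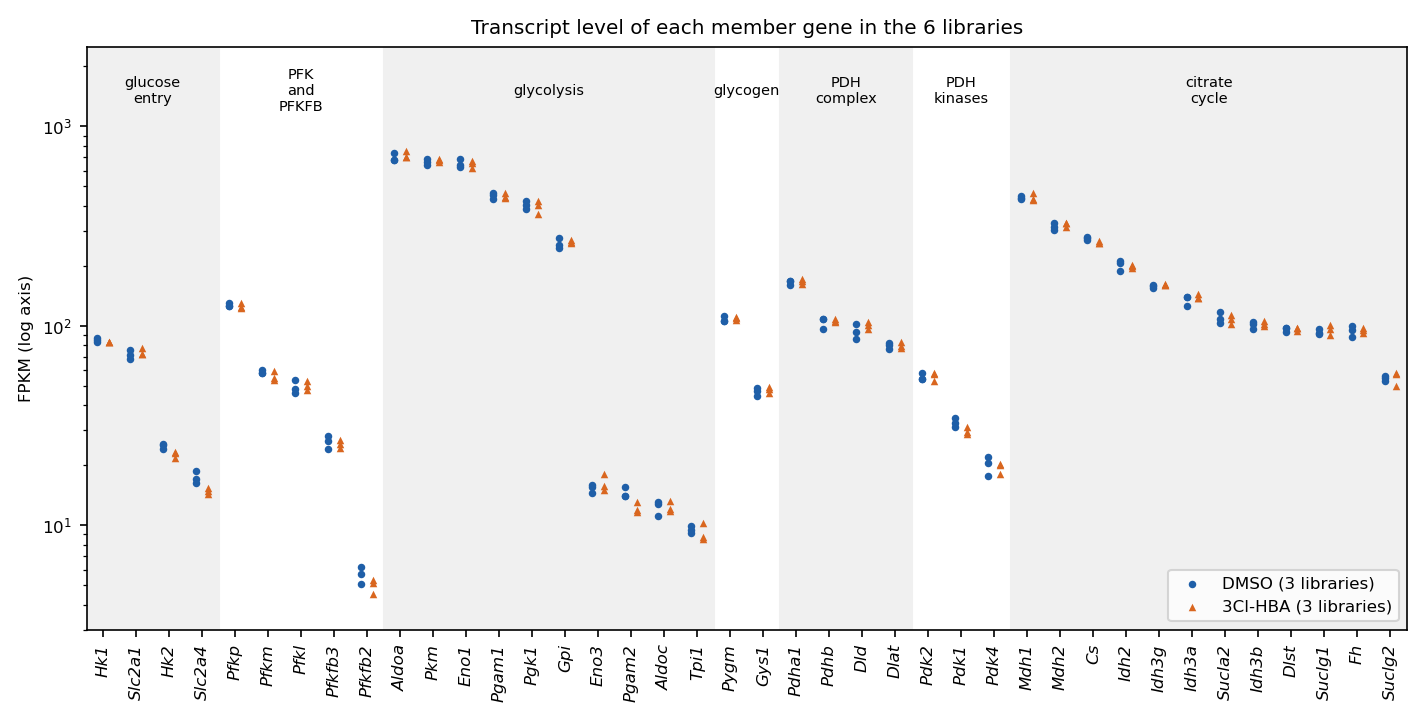
Level of each of the 40 genes in FPKM on a log axis, ordered by role and then by level, with 3 circles for the DMSO libraries and 3 triangles for the 3Cl-HBA libraries. The levels run from about 5 FPKM for Pfkfb2 to about 708 FPKM for Aldoa, and the symbols of both treatments lie on or beside each other for most genes.

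**Figure D2:**
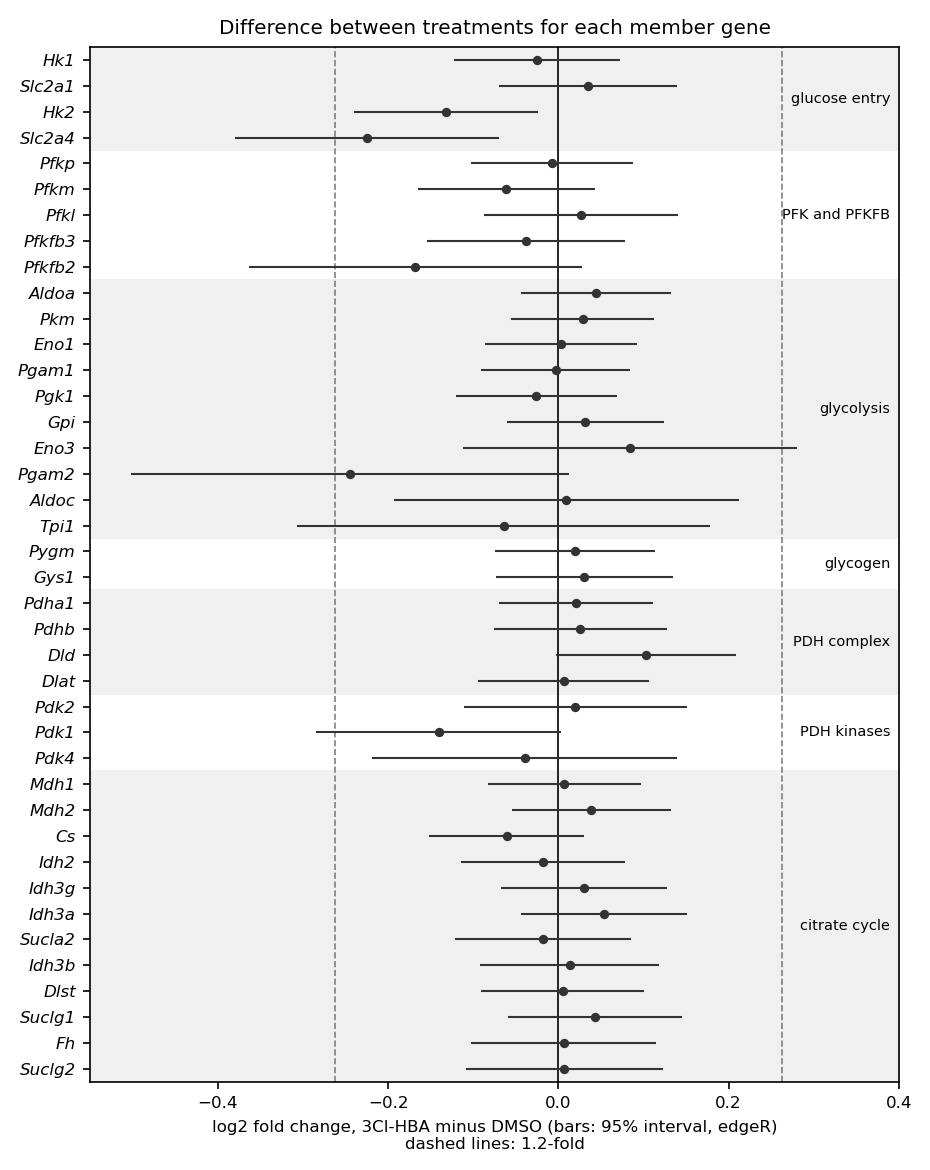
Log2 fold change of each gene, 3Cl-HBA minus DMSO, from edgeR with its 95% interval, and dashed lines at a change of 1.2-fold. All but Slc2a4 and Hk2 have intervals that include 0, and 34 of 40 intervals lie between the dashed lines.

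Glucose enters these cells through Slc2a1, the widely expressed transporter GLUT1, and Slc2a4, the transporter GLUT4 that insulin brings to the surface of muscle cells. Slc2a4 (ENSRNOG00000017226, chromosome 10, 56552983 to 56558487, in deposited coordinates of an unstated build) had 16.4, 18.7 and 17.1 FPKM in DMSO and 15.3, 14.9 and 14.4 FPKM after 3Cl-HBA. The lowest DMSO library was above the highest treated one. Its log2 fold change was -0.22 with an SE of 0.077, a change of -14.4% with a 95% interval from -23.1% to -4.68%, and an adjusted p of 0.959 by edgeR. Slc2a1 was the more abundant of the pair, with 71.8, 68.3 and 76.0 FPKM in DMSO and 77.3, 71.9 and 72.0 FPKM after 3Cl-HBA. Its groups overlapped, and its log2 fold change was 0.035 with an SE of 0.052.

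Hexokinase traps glucose in the cell as glucose phosphate. Hk1, the form of most tissues, had 86.7, 82.7 and 84.8 FPKM in DMSO and 83.0, 83.3 and 83.2 FPKM after 3Cl-HBA, with all treated libraries inside the DMSO range. Hk2 (ENSRNOG00000006116, chromosome 4, 113559427 to 113610243) had 25.5, 24.2 and 25.2 FPKM in DMSO and 22.9, 21.9 and 23.4 FPKM after 3Cl-HBA. Each treated library was below each DMSO library. The log2 fold change of Hk2 was -0.13 with an SE of 0.054, a change of -8.76% with a 95% interval from -15.3% to -1.68%, and an adjusted p of 0.959 by edgeR. Hk3, a hexokinase outside the list, was at 5.16 FPKM over the 6 libraries.

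Phosphofructokinase commits sugar to glycolysis, and its subunits come from a muscle gene (Pfkm), a liver gene (Pfkl) and a platelet gene (Pfkp). The platelet form led in each library. Pfkp had 125.6, 125.1 and 129.7 FPKM in DMSO and 130.2, 124.4 and 123.4 FPKM after 3Cl-HBA. Pfkm had 59.8, 57.8 and 57.8 FPKM in DMSO and 59.6, 53.7 and 54.7 FPKM after 3Cl-HBA, and Pfkl had 48.4, 46.3 and 53.4 and then 53.1, 47.7 and 49.8 FPKM. All 3 overlapped between treatments, with log2 fold changes of -0.0073, -0.061 and 0.027 in that order and SEs of 0.047, 0.052 and 0.056.

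The PFKFB enzymes make and break down a fructose bisphosphate that switches phosphofructokinase on. Pfkfb3, the form with the strongest bias toward making the signal, had 26.5, 24.2 and 28.1 FPKM in DMSO and 25.5, 24.4 and 26.7 FPKM after 3Cl-HBA. Pfkfb2, the heart form that kinases downstream of insulin and adrenaline act on, was the least abundant of the 40 genes, with 6.15, 5.69 and 5.08 FPKM in DMSO and 4.53, 5.35 and 5.14 FPKM after 3Cl-HBA. Both overlapped between treatments. The log2 fold change of Pfkfb2 was -0.17 with an SE of 0.097 and that of Pfkfb3 was -0.038 with an SE of 0.058. The other 2 forms, Pfkfb1 and Pfkfb4, were at 1.8 and 1.15 FPKM.

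The enzymes from glucose phosphate isomerase to pyruvate kinase held the most abundant transcripts of the 40, led by Aldoa, the muscle aldolase that splits the sugar into trioses. Aldoa had 681, 679 and 734 FPKM in DMSO and 752, 702 and 703 FPKM after 3Cl-HBA. The treated libraries overlapped the DMSO ones, and the log2 fold change was 0.045 with an SE of 0.044. It was 0.082 without DMSO replicate 3, 0.025 and 0.023 without DMSO replicates 1 and 2, and 0.015 without 3Cl-HBA replicate 1. Aldoc, the aldolase form of brain, had 12.8, 11.1 and 13.1 FPKM in DMSO and 11.8, 12.05 and 13.3 FPKM after 3Cl-HBA.

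Pkm makes pyruvate and ATP at the end of the path. It had 665, 644 and 685 FPKM in DMSO and 681, 662 and 688 FPKM after 3Cl-HBA, with a log2 fold change of 0.029 and an SE of 0.042, the smallest SE of the 40 genes. Reads per gene cannot separate its spliced forms PKM1 and PKM2. Another row described as a copy of pyruvate kinase held 1.98 to 2.88% of the summed FPKM of the pair. Its groups overlapped, and its log2 fold change was -0.23 with an SE of 0.099. By edgeR its unadjusted p was 0.030 and its adjusted p 0.959. The enolase genes differed in level: Eno1, the widely expressed form, had 624, 637 and 689.7 FPKM in DMSO and 674, 620.0 and 659 FPKM after 3Cl-HBA. Eno3, the muscle form, had 14.6, 16.0 and 15.6 FPKM and then 18.2, 15.7 and 15.1 FPKM. Both overlapped between treatments, with log2 fold changes of 0.0032 (SE 0.044) for Eno1 and 0.084 (SE 0.097) for Eno3.

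Pgk1, which makes the first ATP of the path, had 387, 403 and 421 FPKM in DMSO and 421, 365 and 402 FPKM after 3Cl-HBA. Gpi, the isomerase of glucose phosphate, had 254, 247 and 275 FPKM in DMSO and 269.6, 260.2 and 263 FPKM after 3Cl-HBA. Both overlapped, with log2 fold changes of -0.026 (SE 0.047) and 0.032 (SE 0.046).

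Phosphoglycerate mutase moves the phosphate within phosphoglycerate and has a widely expressed gene, Pgam1, and a muscle gene, Pgam2. Pgam1 had 434, 452 and 464 FPKM in DMSO and 463, 437 and 445 FPKM after 3Cl-HBA, with a log2 fold change of -0.0029 and an SE of 0.044. Pgam2 (ENSRNOG00000013532, chromosome 14, 86044969 to 86047162) had 14.0, 14.0 and 15.5 FPKM in DMSO and 11.6, 11.9 and 13.1 FPKM after 3Cl-HBA. The Pgam2 groups did not overlap while those of Pgam1 did. For Pgam2 the log2 fold change was -0.25 with an SE of 0.13, the largest difference and the largest SE of the 40 genes, a change of -15.6% with a 95% interval from -29.4% to 0.88%, and an adjusted p of 0.962 by edgeR.

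The upstream sequences of both mutase genes and of Hk2 and Pdk1 are shown because Hk2, Pgam2 and Pdk1 did not overlap between treatments and Pgam1 is the abundant counterpart of Pgam2. Each is the 250 bases before the annotated gene start, 5′ to 3′ on the gene's strand, from RefSeq on assembly GRCr8. Slc2a4 has no entry in the promoter table used. Cs, whose groups did not overlap either, has an entry but is not shown. Capitals mark 4 motifs searched on both strands. The core of the hypoxia response element was searched as ACGTG. The TATA box of start sites was searched as TATAAA. The GC box, bound by factors of the Sp family, was searched as GGGCGG. The last was the pentamer CCAAT that the factor NF-Y binds.
Pgam1, chr1:250672902-250673151, plus strand: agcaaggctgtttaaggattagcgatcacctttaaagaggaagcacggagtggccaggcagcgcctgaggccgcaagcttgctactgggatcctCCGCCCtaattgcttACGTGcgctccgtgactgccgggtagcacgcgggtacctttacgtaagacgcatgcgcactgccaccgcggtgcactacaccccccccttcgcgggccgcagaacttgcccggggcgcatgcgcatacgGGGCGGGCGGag
Pgam2, chr14:84897875-84898124, minus strand: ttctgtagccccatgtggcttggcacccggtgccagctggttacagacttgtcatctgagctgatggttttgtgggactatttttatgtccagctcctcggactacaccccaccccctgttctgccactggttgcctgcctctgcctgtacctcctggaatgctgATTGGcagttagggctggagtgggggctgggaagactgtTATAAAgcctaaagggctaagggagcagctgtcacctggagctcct
Hk2, chr4:116841276-116841525, minus strand: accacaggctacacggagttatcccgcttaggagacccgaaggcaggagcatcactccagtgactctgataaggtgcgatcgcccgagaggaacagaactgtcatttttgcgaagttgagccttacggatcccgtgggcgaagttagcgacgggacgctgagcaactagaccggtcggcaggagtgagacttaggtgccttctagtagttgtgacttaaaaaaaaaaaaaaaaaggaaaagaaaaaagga
Pdk1, chr3:77113264-77113513, plus strand: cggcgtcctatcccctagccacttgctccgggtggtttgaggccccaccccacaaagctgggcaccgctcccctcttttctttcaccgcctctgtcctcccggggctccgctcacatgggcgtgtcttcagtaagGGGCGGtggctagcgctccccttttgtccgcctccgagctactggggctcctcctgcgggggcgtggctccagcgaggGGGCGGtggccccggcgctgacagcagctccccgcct
Pgam1 held 25 CpG pairs, 1 match to ACGTG and 3 to GGGCGG, of which 2 overlap next to the start. Pgam2 held 2 CpG pairs, 1 match to TATAAA and 1 to CCAAT. Hk2 held 15 CpG pairs and none of the 4 motifs, and Pdk1 held 19 CpG pairs and 2 matches to GGGCGG. The window of Cs held 18 CpG pairs, 2 matches to GGGCGG and 3 to CCAAT.

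Of the 42 listed names, 39 had an entry in the promoter table. ACGTG occurred in 12 of the 39 windows, or 30.8%, against 16.6% of all 33469 windows of the same length, and GGGCGG in 21, or 53.8%, against 30.5%. CCAAT occurred in 17, or 43.6%, against 34%, and TATAAA in 3, or 7.7%, against 12.9%. A palindrome CACGTG counts as 2 overlapping matches to ACGTG. The 39 windows had a median of 15 CpG pairs, against 5 over all windows and 13 over windows of genes named in the expression table. ACGTG and GGGCGG each contain a CpG pair, and the motif shares were set only against all windows, which are poorer in CpG. The part of CpG content in the motif shares was not tested. Those with under 5 were Aldoa, Eno3, Hk1, Pfkm and Pgam2, of which Aldoa, Eno3, Pfkm and Pgam2 are the muscle forms of their steps. For genes with several starts, such as Aldoa and Hk1, the first listed start was used. A match describes these letters only.

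The triose steps could be read less well. Tpi1, the triose phosphate isomerase, had only 9.98, 9.17 and 9.52 FPKM in DMSO and 10.2, 8.7 and 8.5 FPKM after 3Cl-HBA, far below its neighbours in the path, with a log2 fold change of -0.064 and an SE of 0.12. A second row on chromosome 9, LOC100911515 (ENSRNOG00000050669), is described as similar to triose phosphate isomerase and held 70.8 to 76.7% of the summed FPKM of both. That row had 25.4, 26.3 and 31.4 FPKM in DMSO and 26.0, 21.0 and 25.3 FPKM after 3Cl-HBA, which overlap. Its log2 fold change was -0.20 with an SE of 0.085, an unadjusted p of 0.025 and an adjusted p of 0.959 by edgeR. The sources used here do not say how reads were divided between such copies, and the level of Tpi1 is therefore uncertain.

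The row that carries the gene number of Gapdh, LOC108351137 (ENSRNOG00000018630), was above all 40 genes, with 1644, 1670.3 and 1827 FPKM in DMSO and 1741, 1816.5 and 1843 FPKM after 3Cl-HBA. The enzyme, glyceraldehyde phosphate dehydrogenase, is often taken as a reference gene. The groups overlapped, with a log2 fold change of 0.073 and an SE of 0.044. A second row of the same name (ENSRNOG00000030963) held 14.1 to 15.2% of the FPKM of the pair. Genes on the opposite strand overlap Tpi1, Pdha1 and Idh2 in the deposited coordinates, at 1.5, 1.18 and 7.15 FPKM, and the sources used here do not say whether counting used strand.

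The listed enzymes of glycogen were a phosphorylase and a synthase. Pygm, the muscle phosphorylase that frees glucose phosphate from glycogen, had 106.2, 105.8 and 111.7 FPKM in DMSO and 110.4, 109.8 and 107.6 FPKM after 3Cl-HBA. Gys1, the muscle synthase that stores it, had 48.8, 44.7 and 47.3 and then 48.0, 49.4 and 46.2 FPKM. Both overlapped, with log2 fold changes of 0.019 (SE 0.047) and 0.030 (SE 0.052). The ratio of Pygm to Gys1 was 2.3 ± 0.11 in DMSO and 2.28 ± 0.056 after 3Cl-HBA (SD, n = 3 each).

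Pyruvate enters the citrate cycle through the pyruvate dehydrogenase complex, and its 4 listed genes all overlapped between treatments. Pdha1, the catalytic alpha subunit and target of the kinases, had 167.7, 167.4 and 160.8 FPKM in DMSO and 163, 172 and 167.5 FPKM after 3Cl-HBA. Pdhb, its beta partner, ranged from 96.9 to 108.6 FPKM and Dlat, the core acetyltransferase, from 76.8 to 83.0 FPKM over the 6 libraries. Dld, the dehydrogenase subunit shared with the oxoglutarate and branched-chain complexes, had 93.5, 102.2 and 85.7 FPKM in DMSO and 104.0, 96.5 and 101.6 FPKM after 3Cl-HBA. All 4 genes of the complex were lowest in DMSO replicate 3.

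The log2 fold change of Dld, 0.10 with an SE of 0.052 and an adjusted p of 0.959 by edgeR, was the highest of the 40 genes. It was 0.041 without DMSO replicate 3 and 0.17 without DMSO replicate 2. The other 3 were between 0.0062 and 0.026. Subunit proportions were similar, with Pdha1 over Pdhb at 1.59 ± 0.064 in DMSO and 1.58 ± 0.068 after 3Cl-HBA, and Pdha1 over Dlat at 2.07 ± 0.035 and 2.09 ± 0.02 (SD, n = 3 each). A row described as a copy of Pdha1 held 7.61 to 10.6% of the FPKM of the pair.

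The kinases that switch the complex off were represented by Pdk1, Pdk2 and Pdk4. Pdk2, the form of most tissues, was the most abundant, with 54.3, 54.0 and 58.3 FPKM in DMSO and 52.7, 57.6 and 58.3 FPKM after 3Cl-HBA. Pdk1 (ENSRNOG00000001517, chromosome 3, 58530870 to 58558027), a target of the hypoxia response, had 32.5, 34.6 and 31.3 FPKM in DMSO and 29.4, 28.8 and 31.1 FPKM after 3Cl-HBA. The groups of Pdk1 did not overlap, although DMSO replicate 3 and 3Cl-HBA replicate 3 nearly touched. Its log2 fold change was -0.14 with an SE of 0.072, a change of -9.29% with a 95% interval from -17.9% to 0.223%, and an adjusted p of 0.959 by edgeR.

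Pdk4, the kinase that fasting and fatty acids induce through nuclear receptors in heart and muscle, had 20.6, 17.6 and 22.1 FPKM in DMSO and 18.1, 20.4 and 20.0 FPKM after 3Cl-HBA. Its groups overlapped, with a log2 fold change of -0.039, an SE of 0.089 and a 95% interval from -14.1% to 10.2%. Pdk3, the remaining kinase and not on the list, was at 17.5 FPKM, close to Pdk4.

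In the citrate cycle, citrate synthase, which joins acetyl-CoA to oxaloacetate, was the 1 listed gene of 12 whose groups did not overlap. Cs (ENSRNOG00000023520, chromosome 7, 2752680 to 2778963) had 276, 269.4 and 278 FPKM in DMSO and 261, 259.7 and 268 FPKM after 3Cl-HBA. All treated libraries were below all DMSO libraries, by little. The log2 fold change was -0.061 with an SE of 0.045, a change of -4.13% with a 95% interval from -9.97% to 2.09%, and an adjusted p of 0.984 by edgeR.

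The malate dehydrogenases were the most abundant genes listed for the cycle. Mdh1, the cytosolic form, serves the malate-aspartate shuttle and is counted here with the cycle although it works outside mitochondria. It had 435, 434 and 449 FPKM in DMSO and 464, 428 and 432 FPKM after 3Cl-HBA. Mdh2, the mitochondrial form, had 313, 304 and 329.7 FPKM and then 314, 329 and 328 FPKM. Both overlapped between treatments, with log2 fold changes of 0.0072 (SE 0.045) and 0.039 (SE 0.046).

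Isocitrate is oxidised by an NAD-linked enzyme of 3 kinds of subunit and by the NADP-linked Idh2. Idh2 had 188, 207 and 212 FPKM in DMSO and 200.1, 203 and 195 FPKM after 3Cl-HBA, all treated libraries inside the DMSO range. Idh3a, the catalytic subunit, had 139, 140.3 and 125 FPKM in DMSO and 138, 145 and 137 FPKM after 3Cl-HBA, with a log2 fold change of 0.054 and an SE of 0.048, which was 0.0032 without DMSO replicate 3. It was lowest in DMSO replicate 3, as the genes of the pyruvate dehydrogenase complex were. The regulatory subunits Idh3g and Idh3b ranged from 154 to 161.5 and from 97.0 to 105.2 FPKM over the 6 libraries.

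The other listed genes of the cycle showed the same overlap. Dlst, the core of the oxoglutarate dehydrogenase complex, had 97.4, 93.0 and 97.6 FPKM in DMSO and 97.0, 97.3 and 94.3 FPKM after 3Cl-HBA. Succinyl-CoA ligase joins a common alpha subunit, Suclg1, at 89.9 to 101.2 FPKM, with an ATP-linked or a GTP-linked beta subunit. The ATP-linked Sucla2 had 107.9, 117 and 103.5 FPKM in DMSO and 113.4, 102.5 and 108.3 FPKM after 3Cl-HBA. The GTP-linked Suclg2 had 53.1, 55.01 and 56.2 and then 58.0, 57.1 and 49.8 FPKM. Succinate dehydrogenase, the next enzyme of the cycle, has no gene on the list. Fumarase acts after it, and its gene Fh had 87.9, 95.1 and 99.8 FPKM in DMSO and 97.3, 91.7 and 94.8 FPKM after 3Cl-HBA. The log2 fold changes of these 5 genes were between -0.018 and 0.043. A row with the gene number of Ogdh, LOC103693780, the catalytic subunit of the oxoglutarate complex, had 47.4 to 49.4 FPKM in DMSO and 44.3 to 57.6 FPKM after 3Cl-HBA, with a log2 fold change of 0.065 and an SE of 0.069.

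Where several listed genes serve a step, the share of each in their summed FPKM does not depend on the scaling of the library. The sums hold the listed genes only. Of 14 shares in 10 steps, 4 did not overlap between treatments, with an exact two-sided permutation p of 0.1, the smallest that 3 against 3 allows, and 0.35 after adjustment over the 14. The design cannot reach 0.05. These 4 steps were glucose transport, hexokinase, phosphoglycerate mutase and the pyruvate dehydrogenase kinases. Slc2a4, Hk2 and Pgam2 were already among the genes whose own FPKM did not overlap. So was Pdk1, which is in the sum of the Pdk2 share, while the FPKM of Pdk2 itself overlapped. The 4 shares are therefore not separate evidence. No matching count of shares over other genes was made. The Slc2a4 share of both transporters was 18.6, 21.5 and 18.3% in DMSO and 16.5, 17.2 and 16.6% after 3Cl-HBA, with means of 19.5 ± 1.77% and 16.8 ± 0.324% (SD, n = 3 each). The difference of 2.68 points fell to 1.66 without DMSO replicate 2. The Hk2 share of both hexokinases was 22.8 ± 0.171% and 21.5 ± 0.617%. Pgam2 had 3.13 ± 0.115% and 2.66 ± 0.207% of the sum with Pgam1.

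In these 3 steps the share of the muscle form was lower after 3Cl-HBA in each library. Of the muscle forms of other steps, Pfkm had 24.9 ± 0.826% of its sum in DMSO and 24.1 ± 0.391% after 3Cl-HBA, Aldoa 98.3 ± 0.12% and 98.3 ± 0.154%, and Eno3 2.32 ± 0.122% and 2.45 ± 0.191%, all overlapping. The Pfkm share differed by -1.29 to -0.50 points when single libraries were left out, and no test compared the muscle forms with each other. The Pdk2 share of Pdk1, Pdk2 and Pdk4 was 50.6, 50.8 and 52.2% in DMSO and 52.6, 53.9 and 53.3% after 3Cl-HBA, which do not overlap. With Pdk3 in the sum it was 42.9, 43.7 and 45.4% in DMSO and 45.4, 45.7 and 46.4% after 3Cl-HBA. The groups then nearly touched. The Pdk1 share, 30.3 ± 2.29% and 28.2 ± 1.19%, and the Pdk4 share, 18.5 ± 1.7% and 18.5 ± 0.559%, overlapped. Also overlapping were the shares of Pfkfb2 (17.7 ± 2.1% and 16.4 ± 1.48%), Sucla2 (66.6 ± 1.65% and 66.3 ± 2.16%) and Mdh1 (58.2 ± 0.573% and 57.7 ± 1.75%).

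**Figure D3:**
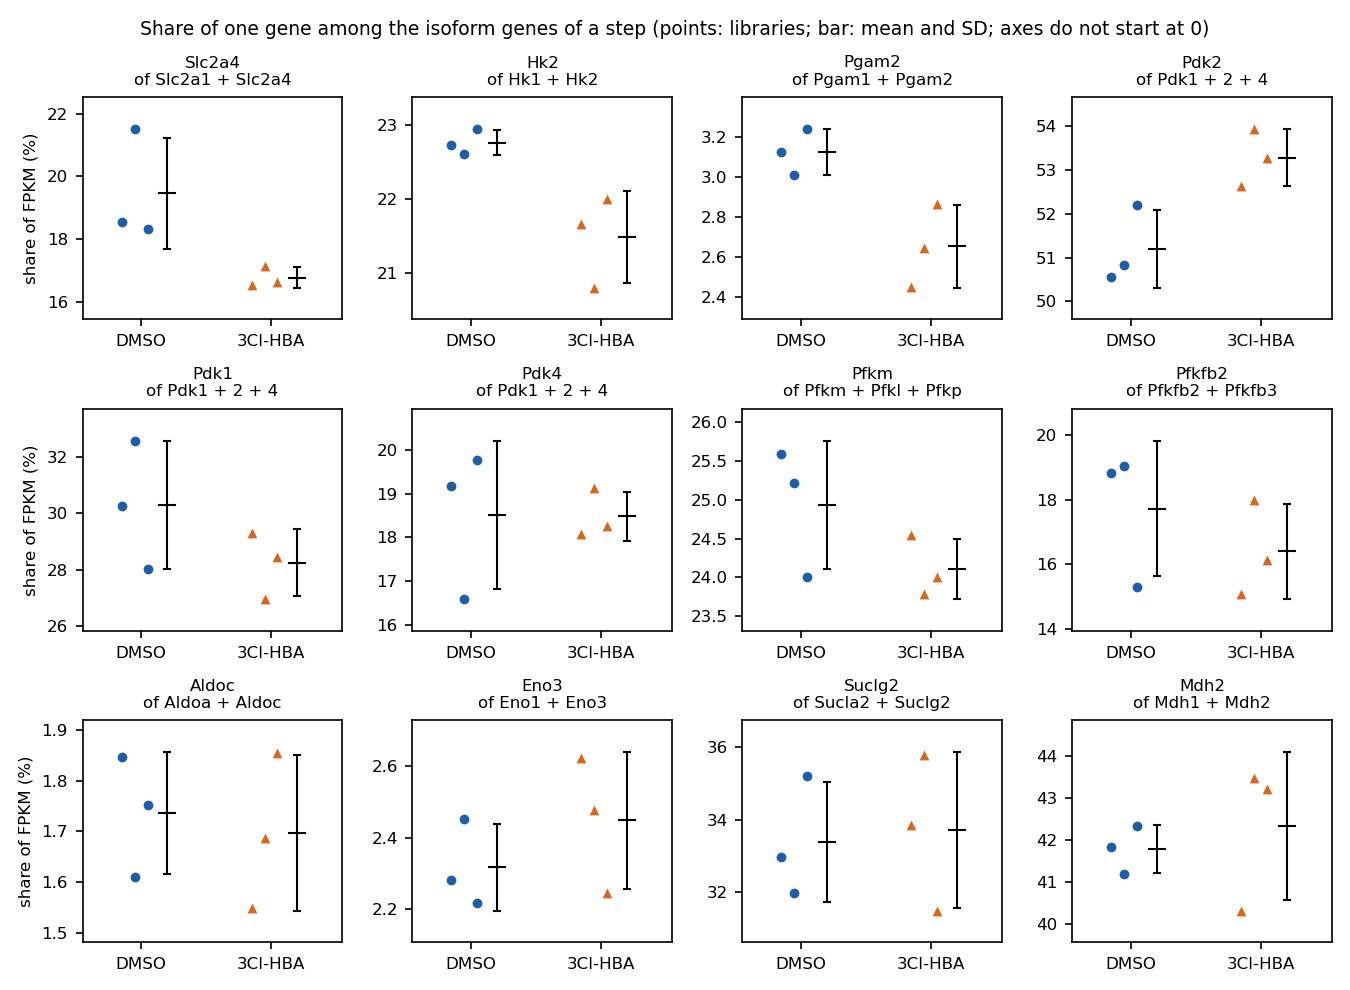
Share of 1 gene in the summed FPKM of the listed genes of its step, in percent, with circles for the 3 DMSO libraries, triangles for the 3 3Cl-HBA libraries and bars for mean and SD. Axes differ between panels and do not start at 0. The groups stand apart for Slc2a4, Hk2, Pgam2 and Pdk2 in the top row and overlap in the other 8 panels.

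Summed by role, the transcripts took nearly the same part of each library in both treatments. The 40 genes held 1.32 ± 0.0242% of all FPKM in DMSO and 1.32 ± 0.0173% after 3Cl-HBA (SD, n = 3 each). Glycolysis enzymes from Gpi to Pkm held 0.655 ± 0.0219% and 0.655 ± 0.0169%. The genes listed for the citrate cycle, the cytosolic Mdh1 among them, held 0.428 ± 0.0043% and 0.425 ± 0.0017%. The ratio of the first to the second was 1.53 ± 0.036 in DMSO and 1.54 ± 0.036 after 3Cl-HBA. Glucose entry with hexokinases held 0.0411 ± 0.0011% and 0.0397 ± 0.000355%, the pyruvate dehydrogenase complex 0.0915 ± 0.0047% and 0.0928 ± 0.0012%, and its kinases 0.0224 ± 0.0005% and 0.0215 ± 0.0011%. Each of these sums overlapped between treatments.

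Single libraries also stood out. DMSO replicate 3 had the highest level for 15 of the 40 genes, against 18.5% of all genes tested, and its glycolysis sum of 0.68% was the highest of the 6. The same library had the lowest sum for the pyruvate dehydrogenase complex, 0.0861%. It was also the highest of the 6 for the cardiomyocyte, fibroblast, smooth muscle and endothelial marker sums, and the part of this in the gene levels was not tested. DMSO replicate 2 was lowest for 13 of the 40, against 16.4% of all genes.

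**Figure D4:**
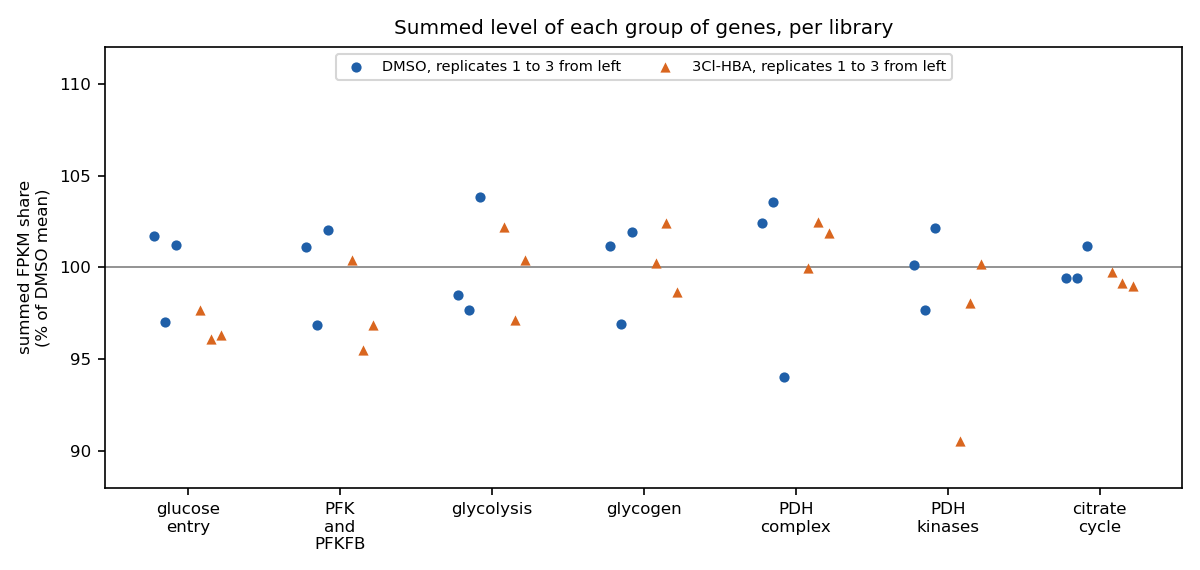
Summed FPKM share of each group of genes in every library, as a percentage of the DMSO mean of that group, on an axis that does not start at 0. Circles are DMSO and triangles 3Cl-HBA, with replicates 1 to 3 from left to right, and the treatments overlap in each group.

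Other genes of the same paths, 89 chosen by role but with earlier results of these data known, were read the same way. A row was found for 84 and 72 were tested. None passed an adjusted p of 0.05 by edgeR, DESeq2 or limma-voom, and 0 were higher and 2 lower at an unadjusted p under 0.05, or 2.78% against 2.59% of all genes tested in the lower direction. With groups that did not overlap, 3 were higher and 3 lower, or 4.17% each against 5.06% and 5.3%, so these shares were near those of all genes. The median log2 fold change of the 72 was -0.0037. The 2 lower genes were Mlxip and Gapdhs. Mlxip, a glucose-sensing transcription factor also called MondoA, had 13.6, 13.7 and 14.3 FPKM in DMSO and 11.3, 11.1 and 13.5 FPKM after 3Cl-HBA, with a log2 fold change of -0.21 and an SE of 0.071. Its groups did not overlap. Gapdhs, the sperm form of the dehydrogenase, was near 1 FPKM, with 1.3, 1.83 and 0.781 FPKM in DMSO and 0.796, 0.638 and 0.944 FPKM after 3Cl-HBA, which overlap.

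Next by p in the lower direction was Sdhaf2, an assembly factor of succinate dehydrogenase, with 37.6 to 41.6 FPKM in DMSO and 34.6 to 36.6 FPKM after 3Cl-HBA and a log2 fold change of -0.13 (SE 0.064). In the higher direction the 3 genes with the smallest p were Pdp1, the phosphatase that switches the pyruvate dehydrogenase complex on, Ppp1r3c, which targets a phosphatase to glycogen, and Epm2a, the glycogen phosphatase laforin. Pdp1 had 16.4 to 16.9 FPKM in DMSO and 16.9 to 19.2 FPKM after 3Cl-HBA, with a log2 fold change of 0.12 (SE 0.072). Ppp1r3c had 23.9 to 25.8 and 25.8 to 27.0 FPKM, with a log2 fold change of 0.096 (SE 0.063), and Epm2a 0.603 to 1.57 and 1.12 to 2.17 FPKM.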

How the data were processed

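RNA from 6 libraries, 3 per group, was sequenced on an Illumina instrument after ribosomal depletion with a KAPA RiboErase kit, per the labels' protocols, which also name DESeq2. The authors deposited 1 table with raw read counts per gene and FPKM for each library. The sources used here do not give the aligner, counter, strand setting, genome build or annotation. The deposited FPKM equal the read count divided by the deposited gene length and by the column total, to a relative gap of 8.2e-08. Columns were assigned by the treatment protocol and the replicate number in each title.

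Counts were tested over the whole table with edgeR 4.0.16 in R 4.3.3 (TMM scaling, filterByExpr with a minimum count of 10, robust quasi-likelihood fit, no block, Benjamini-Hochberg adjustment over 13903 genes). Intervals are at 95%. Isoform shares were compared with an exact permutation test in SciPy 1.17.1, two-sided, and adjusted over 14 shares. Alternatives were library totals alone, DESeq2 1.42.0, limma-voom (limma 3.58.1), no filter on low counts, a replicate block, removal of a length trend (loess span 0.5), read counts without length, isoform genes outside the list added to the sums, and leaving out each library. The procedure was tested on simulated counts with changes of 1.5-fold or more, which does not speak for smaller changes. Upstream sequences came from a RefSeq table of assembly GRCr8. No genome of the files' build was used.

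The genes, the other lists and the tests were chosen with earlier results of these data known. Values in every library are given for the most abundant gene of each step, each gene of an isoform step, Pdk4 and, in each direction, the 3 genes of lowest unadjusted p (Dld, Idh3a and Aldoa above 0, and Slc2a4, Hk2 and Pdk1 below). Cs, the copies, the markers Tcf21 and Rgs5, and the 4 markers given with their fold changes were named after their values were seen. Rows for Gapdh and Ogdh were found through NCBI gene numbers.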

Additional observations from a re-analysis of the deposited data

How the results depend on the processing

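None of the 40 genes passed an adjusted p of 0.05 under any of the 12 alternatives of the edgeR analysis. The adjusted p of Slc2a4 ranged from 0.499 to 1 and its log2 fold change from -0.27 to -0.17, and that of Hk2 from 0.647 to 1 with -0.16 to -0.11. The direction of these 2 genes and of Pdk1, Dld, Idh3a and Aldoa stayed as reported in all 12, but single libraries moved the sizes of the last 3, to 0.041 for Dld and 0.0032 for Idh3a without DMSO replicate 3 and to 0.015 for Aldoa without 3Cl-HBA replicate 1. The median of the 40 genes was -0.00069 with the length trend removed. The 5 genes whose groups do not overlap also numbered 5 by CPM on TMM-scaled totals, an alternative chosen after seeing the data. The count of genes at an unadjusted p under 0.05, 2 as reported, was 4 with the length trend removed, and ranged from 1 to 5 when single libraries were left out. Among the other genes of the paths the same count, 2 as reported, was 1 with DESeq2, with limma-voom and with the replicate block, and ranged from 1 to 3 when single libraries were left out. The cause was not tested.

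With the replicate block the count of the 40 genes at an unadjusted p under 0.05 was 2. Same-numbered libraries did not deviate together, with correlations of -0.069, -0.044 and -0.045 between their deviations from the group means over genes, so the numbers were not taken to pair the libraries.

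Among the isoform shares, the 4 that did not overlap had the same direction in all alternatives, with differences of 1.66 to 3.25 points for Slc2a1, 0.93 to 1.53 for Hk1, 0.37 to 0.58 for Pgam1 and 1.76 to 2.6 for Pdk2 when single libraries were left out. From read counts without length that of Pgam1 was 0.24. Adding the isoform genes outside the list, an alternative chosen after seeing the data, gave 1.82 points for Pdk2 and turned no direction. The Pdk4 share, -0.032 percentage points as reported, was 0.074 from read counts without length. When single libraries were left out, the difference ranged from -1.0 to 0.60 points for Pdk4, -0.18 to 0.57 for Pfkp, -0.035 to 0.12 for Aldoa, -1.44 to 0.71 for Sucla2 and -1.56 to 0.021 for Mdh1, so these 5 shares have no set direction. The log2 ratio of the summed shares turned sign between FPKM and reads for the citrate cycle (-0.010 and 0.0051), the glycolysis enzymes (-0.0013 and 0.014) and all 40 genes (-0.0062 and 0.0079).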
